A study of Mus musculus with 25 samples.

Results

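p53, the product of *Trp53*, is a transcription factor that cells stabilize after DNA damage and other stress, and the genes it switches on stop the cell cycle, repair or protect the cell, or start apoptosis. The genes described here are 10 transcripts of this kind, of the 55375 genes counted in the series: *Cdkn1a*, *Ccng1* and *Btg2* act on the cell cycle, *Mdm2* feeds back on p53, *Bax*, *Bbc3*, *Pmaip1* and *Phlda3* act towards apoptosis, and *Sesn2* and *Trp53inp1* belong to the stress response. They were taken by their symbols, and all 10 were among the 25794 genes tested. p53 itself is held low in healthy cells by the ubiquitin ligase MDM2, which p53 induces, so that *Mdm2* is both a target and a brake. In preimplantation embryos the pathway is known as a checkpoint that responds to broken or unreplicated DNA. Many of these genes also respond to other inputs, and their mRNA is no direct measure of p53 protein, DNA damage or arrest, none of which was measured in these data.

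RNA was sequenced from 25 libraries of wildtype mouse embryos in 11 groups, each library from its own pool of 5 to 10 two-cell embryos taken 28 to 29 h after insemination or activation. Embryos from in vitro fertilization (IVF, 4 libraries) had C57BL/6N oocytes and DBA2 sperm. Embryos from somatic cell nuclear transfer (SCNT) had oocytes of BDF1 females (C57BL/6N x DBA2) and nuclei of BDF1 female cumulus cells, the cells that surround the oocyte. The way the embryo was made and the strain of the oocyte therefore cannot be told apart, and IVF pools hold embryos of both sexes whereas SCNT pools do not. Oocyte donors were 4 to 20 weeks old per the labels, and the study's supplement gives a narrower age range for the parents of the IVF embryos. Control SCNT embryos (2 libraries) were made in cytochalasin B, an inhibitor of actin, as were SCNT-*Kdm3a* and SCNT-*Kdm4d* embryos (2 each), which received 10 pL of mRNA for the H3K9 demethylase KDM3A or KDM4D at 1500 ng/µL, 5 to 6 h after activation. The remaining SCNT embryos were made in latrunculin A, another inhibitor of actin. They were left untreated (CC_cont, 2), given the histone deacetylase inhibitor trichostatin A (TSA) at 25 nM for 8 h (CC_T, 2), given an inhibitor of the H3K9 methyltransferase G9a at 1 µM for 24 h (CC_G with RK-701, 3, or A366, 2), or given both (CC_TG with RK-701, A366 or UNC0638, 2 each).

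The labels name no batch or date. Reads on genes ranged from 6662727 to 21188688 per library (median 13994840), and libraries of 1 group correlated at 0.96 to 0.987 in log2(CPM + 1). Because pools were sequenced in bulk, fewer cells with a transcript and less transcript per cell cannot be told apart. The 16 cumulus cell markers summed to 144 to 197 CPM in IVF, 167 to 215 CPM in untreated SCNT and 151 to 320 CPM in treated SCNT libraries, with the highest sums in SCNT-*Kdm3a* (298 to 318 CPM) and SCNT-*Kdm4d* (241 to 320 CPM). In reads per gene length (TPM) the highest sums were in CC_T (205 to 218 TPM). SCNT-*Kdm3a* had 166 to 171 TPM, SCNT-*Kdm4d* 143 to 177, control SCNT 156 to 161 and IVF 97.2 to 139. *Nr5a2* and *Amhr2* held most of the sum and were about as high in IVF (means of 111 and 30.3 CPM) as in control SCNT (125 and 30.3 CPM). Other markers differed in both directions. *Kitl* averaged 10.2 CPM in IVF, 24.4 in control SCNT and 18.0 in CC_cont, and *Cyp19a1* 4.13, 0.735 and 0.791. *Ptx3*, *Inha*, *Inhba*, *Fshr* and *Amh* were at 0 in all IVF libraries, *Foxl2* in both control SCNT libraries, and *Ptx3*, *Inha* and *Lhcgr* in both CC_cont libraries. Control SCNT libraries held at most 11 reads of *Ptx3*, 1 of *Inha*, 8 of *Inhba*, 6 of *Fshr* and 9 of *Amh*. The part of cumulus RNA in the results below was not tested. Markers of the two-cell embryo summed to 1116 to 1587 CPM in IVF and to 374 to 2328 CPM in SCNT libraries. A level is given below as CPM (reads on the gene relative to all reads on genes of the library, after TMM scaling between libraries) with SD over libraries, and a gene was called when the edgeR quasi-likelihood test gave an adjusted p (Benjamini-Hochberg over the 25794 genes) under 0.05 and a fold change over 2. Member counts at an unadjusted p, or by DESeq2, that have no share of all genes beside them are not read as results about members.

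The promoters of the members show which of them carry the sequence that p53 binds close to the start of the gene. The p53 response element is built of 2 decamers, and windows of 300 bases (250 before and 50 after the start) were taken from RefSeq on GRCm38.p6, the assembly behind mm10. Of the 10 members 8 had a window there, 11 windows in all. A whole element, with at most 1 mismatch and at most 1 base between the decamers on either strand, stood in 3 of the 8 genes, *Cdkn1a*, *Ccng1* and *Bax*, and in 0.211% of the 27025 genes in the table. A single perfect decamer stood in 4 of the 8 (decamers within whole elements included) and in 9.55% of all genes, and *Mdm2* had only that. The stretches below run 5′ to 3′ on the strand of the gene, with the element in capitals and 30 bases on each side. The *Cdkn1a* stretch also holds a perfect single decamer, left in lower case, at 29090906 to 29090915, 73 bases before the start.
*Cdkn1a*, chr17:29090898-29090977, plus strand, 51 bases before the start: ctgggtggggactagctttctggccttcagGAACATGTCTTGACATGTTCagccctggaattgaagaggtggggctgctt
*Ccng1*, chr11:40755432-40755511, minus strand, 195 bases before the start: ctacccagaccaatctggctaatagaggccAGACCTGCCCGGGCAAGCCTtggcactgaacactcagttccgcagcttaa
*Bax*, chr7:45467060-45467140, minus strand, 212 bases before the start: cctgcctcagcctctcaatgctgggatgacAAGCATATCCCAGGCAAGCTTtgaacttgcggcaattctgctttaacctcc
*Mdm2*, chr10:117710905-117710974, minus strand, single decamer 186 bases before the start: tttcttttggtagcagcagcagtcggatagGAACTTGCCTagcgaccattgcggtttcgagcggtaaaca
A match describes these letters only and says nothing of binding in these embryos. *Cdkn1a*, *Ccng1* and *Bax*, which share the element, differed in how they moved, as the values below show.

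On a scale per gene length (TPM, over autosomal genes), the members spanned a wide range in IVF embryos. *Mdm2* led with 207 ± 15.9 TPM (SD, n = 4), followed by *Trp53inp1* with 122 ± 9.70. *Pmaip1* (50.2 ± 8.41) and *Sesn2* (49.7 ± 6.31) did not differ beyond their spread, nor did *Cdkn1a* (24.3 ± 4.46), *Ccng1* (24.2 ± 5.21) and *Btg2* (23.0 ± 1.77), while *Bax* lay between those sets at 34.7 ± 6.10. *Bbc3* was at 1.36 ± 0.776 TPM, and *Phlda3* had no read in any IVF library. In control SCNT embryos (n = 2) the order was headed by *Mdm2* (223 ± 51.7 TPM) and *Trp53inp1* (214 ± 55.9), which did not differ beyond their spread, and *Cdkn1a* came next with 50.2 ± 5.72. *Pmaip1* stood at 5.26 ± 1.33 TPM there and at 1.01 ± 1.42 in CC_cont, where *Cdkn1a* had 62.5 ± 13.5. In CC_cont, *Cdkn1a* did not differ beyond its spread from *Bax* (57.8 ± 23.6 TPM) or *Sesn2* (46.4 ± 14.7).

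Untreated SCNT embryos were first compared with IVF embryos, to ask whether p53 target transcripts differ in embryos given no mRNA, TSA or G9a inhibitor. The strain of the oocyte, chemical activation and the actin inhibitor differ as well and cannot be told apart from nuclear transfer. The 10 genes did not move in 1 direction. *Pmaip1* fell by 4.57 on the log2 scale in the mean of both untreated groups (standard error 0.58, adjusted p = 8.33e-07), *Cdkn1a* and *Trp53inp1* were higher by less than 2-fold, *Sesn2* was lower by less than 2-fold, and *Mdm2*, *Ccng1*, *Bax*, *Btg2* and *Bbc3* did not pass. In that mean, 0 members were called higher and 1 lower, where 9.63% and 9.21% of all genes tested were called (18.8% in either direction). By adjusted p alone, 4 members passed (2 higher, 2 lower) beside 29.2% of all genes, and DESeq2 called 1. Against IVF, 2 members were called in control SCNT (1 higher, 1 lower, beside 15% of all genes) and 2 in CC_cont (1 higher, 1 lower, beside 15.3%). By adjusted p alone there were 5 (beside 21.3%) and 3 (beside 21.6%). The median log2 fold change of the 10 members was −0.10 in control SCNT, 0.26 in CC_cont and 0.08 in the mean, against 0.01, 0.04 and 0.00 for all genes tested. These comparisons, and those of treated embryos with IVF below, share the 4 IVF libraries. On the TPM scale the median of genes with 5 CPM or more moved up by 0.26 in the mean of the controls against IVF, and *Cdkn1a* (1.18) and *Bbc3* (1.19) were then called as well.

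*Pmaip1* (chromosome 18 of mm10, 66458533 to 66465565), which encodes NOXA, a BH3-only protein that frees BAX and BAK by binding MCL1, had the strongest difference of the 10. IVF libraries held 46.5, 44.6, 47.3 and 63.6 CPM. Control SCNT libraries held 3.39 and 5.66 CPM, and CC_cont libraries 1.74 and 0 CPM. Every SCNT library of the series lay below every IVF library, the highest being 11.4 CPM in CC_TG (RK-701). The log2 fold change against IVF was −3.47 in control SCNT (standard error 0.72, adjusted p = 0.00083) and −5.67 in CC_cont (standard error 0.84, adjusted p = 1.64e-05). *Pmaip1* was also called lower than IVF in all 8 treated groups, by −2.41 in CC_TG (RK-701) to −7.03 in SCNT-*Kdm4d*. The call was lost in CC_TG (RK-701) without its replicate 1 (−2.15) or 2 (−2.72), and in CC_TG (A366) without its replicate 2 (−2.19). *Pmaip1* is on the list of reprogramming-resistant genes that the study drew up partly from its own contrast of SCNT with IVF embryos, so its lower level is not independent evidence for that list. None of the other members is on it.

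**Figure D1:**
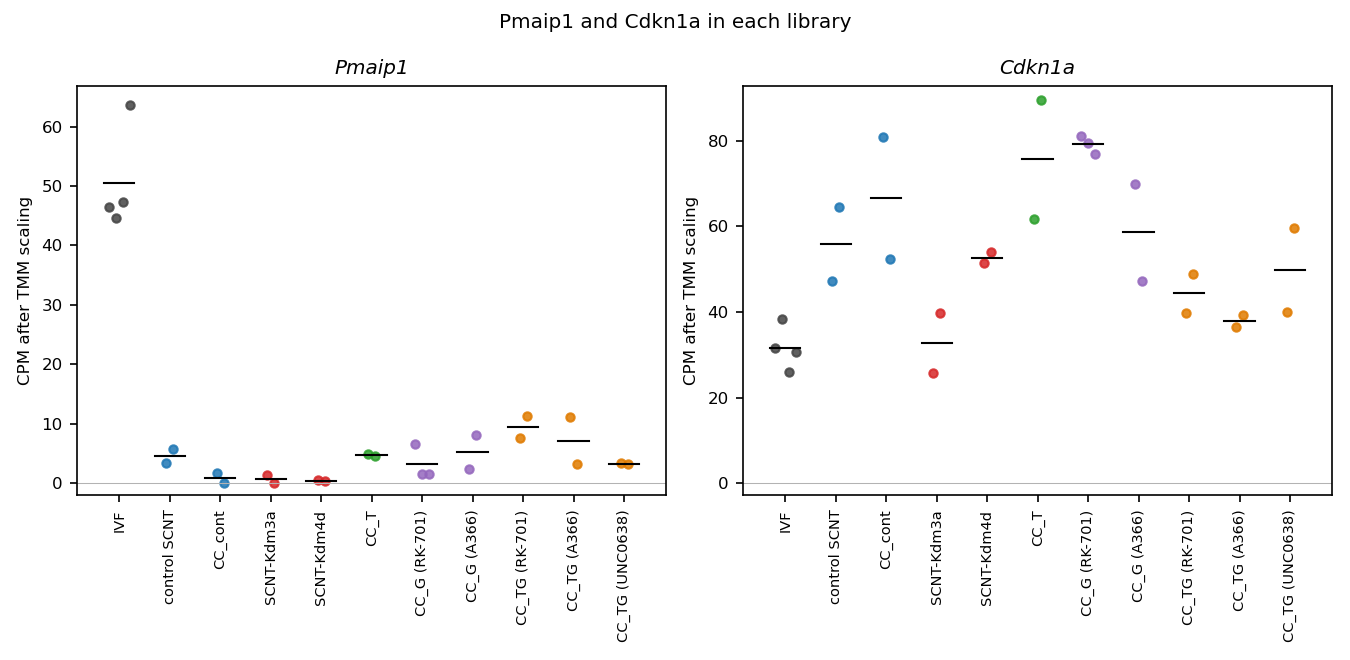
CPM after TMM scaling of *Pmaip1* (left) and *Cdkn1a* (right) in each of the 25 libraries by group, with points for libraries and bars for group means. All 21 SCNT libraries lie below the 4 IVF libraries for *Pmaip1*, whereas for *Cdkn1a* all libraries of 8 SCNT groups lie above the highest IVF library, and those of SCNT-*Kdm3a* and CC_TG (A366) overlap with IVF.

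*Cdkn1a* (chromosome 17, 29090976 to 29100727) encodes p21, the inhibitor of cyclin-dependent kinases through which p53 halts the cell in G1. It had 31.6, 38.4, 26.1 and 30.5 CPM in IVF, 47.2 and 64.4 CPM in control SCNT, and 80.8 and 52.3 CPM in CC_cont, so that untreated SCNT and IVF libraries did not overlap. The log2 fold change in the mean of both controls was 0.95 (standard error 0.19, adjusted p = 0.00045), close to but under the 2-fold threshold. It was 0.82 (adjusted p = 0.0107) in control SCNT. In CC_cont *Cdkn1a* was called higher at 1.07 (standard error 0.23, adjusted p = 0.00098), but not without IVF replicate 3 (0.99) or without CC_cont replicate 1 (0.72, adjusted p = 0.0586). A share of 7.68% of its counted length lies under another annotated gene, and reads there were not counted.

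**Figure D2:**
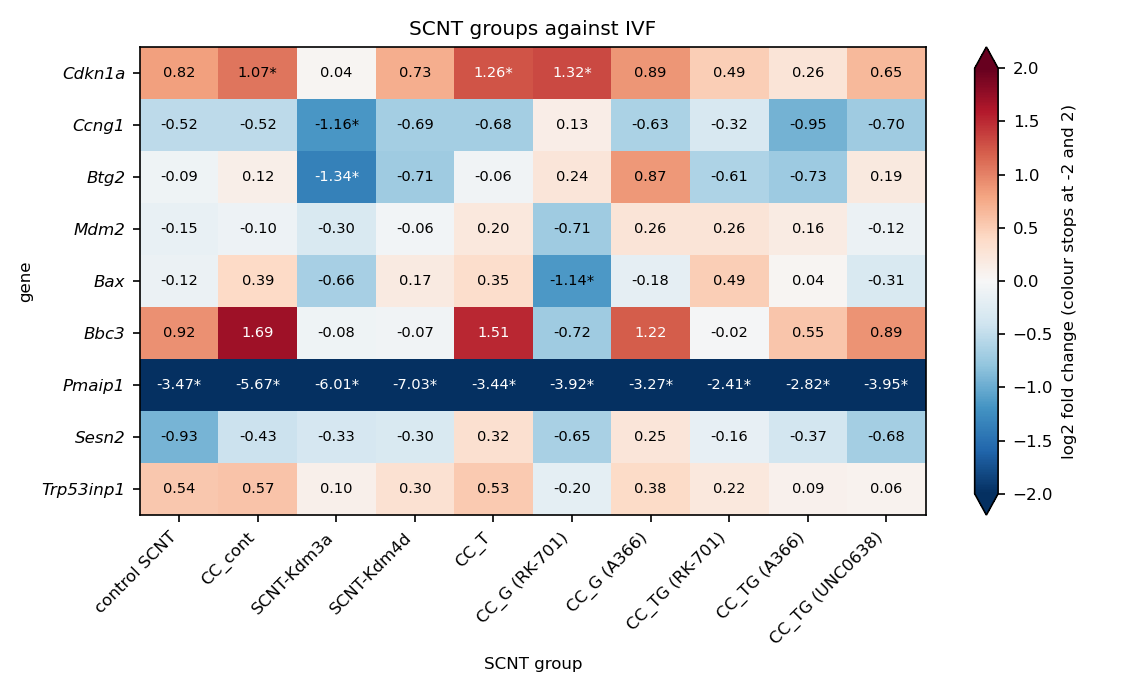
Log2 fold change of 9 members (rows; *Phlda3*, with almost no reads, is left out) in each of 10 SCNT groups against IVF (columns), with an asterisk where the gene was called. *Pmaip1* is called lower in all 10 groups (the colour stops at −2), and *Cdkn1a* is called higher in CC_cont, CC_T and CC_G (RK-701).

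The treated groups differed widely in *Cdkn1a*. It was called higher than IVF in CC_T, with 61.8 and 89.6 CPM (log2 fold change 1.26, adjusted p = 0.00017), and in CC_G (RK-701), with 81.1, 79.5 and 76.8 CPM (1.32, adjusted p = 2.91e-05). The call in CC_T was lost without its replicate 2 (0.93). SCNT-*Kdm4d* libraries held 51.4 and 53.9 CPM and CC_G (A366) libraries 70.0 and 47.3 CPM, above all IVF libraries but under the 2-fold threshold (0.73, adjusted p = 0.030, and 0.89, adjusted p = 0.0056). SCNT-*Kdm3a* libraries, at 25.7 and 39.8 CPM, overlapped with IVF (0.04, 95% confidence interval −0.44 to 0.53). The co-treated groups lay between, at 39.8 and 48.8 CPM for RK-701, 36.4 and 39.3 for A366 and 40.0 and 59.6 for UNC0638, with log2 fold changes of 0.26 to 0.65 that did not pass.

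In untreated SCNT embryos the other arrest genes did not follow *Cdkn1a*. *Ccng1* (chromosome 11, 40748552 to 40755311), a cyclin that recruits a phosphatase to MDM2, had 40.5, 30.5, 28.2 and 25.9 CPM in IVF, 19.5 and 24.0 in control SCNT and 31.2 and 11.9 in CC_cont. The difference in the mean of both controls was −0.52 (95% confidence interval −1.10 to 0.06, adjusted p = 0.17), and 1 CC_cont library lay within the IVF range and the other below it. Without the former, CC_cont replicate 1, *Ccng1* was called lower in CC_cont (−1.39). *Ccng1* was called lower than IVF in SCNT-*Kdm3a* embryos alone of the 10 SCNT groups (19.0 and 8.64 CPM, −1.16, adjusted p = 0.024). That call was lost without IVF replicate 1 (−1.02) or SCNT-*Kdm3a* replicate 2 (−0.71). *Btg2* (chromosome 1, 134075170 to 134079120), an antiproliferative cofactor of mRNA deadenylation, had 20.6 to 25.4 CPM in IVF, 17.8 and 25.9 CPM in control SCNT and 30.4 and 20.0 CPM in CC_cont, and these ranges overlapped (0.02 in the mean, 95% confidence interval −0.44 to 0.47). It had 9.06 and 9.24 CPM in SCNT-*Kdm3a* embryos and was called lower there than in IVF (−1.34, adjusted p = 0.0015). CC_G (A366) libraries had the highest levels of the series, 33.6 and 51.5 CPM.

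*Mdm2* (chromosome 10, 117688875 to 117710758) differed little between IVF and untreated SCNT embryos. Its mean was 259.8 ± 16.1 CPM (SD, n = 4) in IVF, 234 ± 29.6 (n = 2) in control SCNT and 242 ± 34.6 (n = 2) in CC_cont, which overlapped (−0.13 in the mean, 95% confidence interval −0.38 to 0.12). On the TPM scale that value was 0.15, so no direction is given for *Mdm2* in untreated embryos. In CPM, treated groups stood apart on both sides. CC_G (RK-701) was lowest, with 154, 153 and 168 CPM against 213 CPM or more in every IVF, control SCNT and CC_cont library. The difference from IVF was −0.71 (adjusted p = 0.00027), under 2-fold. CC_G (A366), with 346 and 277 CPM, and CC_TG (RK-701), with 292 and 330 CPM, lay above all of those libraries, without passing against IVF (0.26 in both). In TPM only the low side remained, and other treated groups shared it. CC_G (RK-701) had 142 to 161 TPM and SCNT-*Kdm3a* 143 and 158 TPM. SCNT-*Kdm4d* (175 and 184 TPM) and CC_TG (UNC0638) (171 and 177 TPM) also lay below every IVF, control SCNT and CC_cont library (187 TPM or more). CC_TG (RK-701), at 218 and 239 TPM, lay within the range of control SCNT (187 and 260). The lower CC_G (A366) library, at 261 TPM, lay below 1 CC_cont library (282).

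Among the apoptosis genes other than *Pmaip1*, none was called in the mean of both untreated groups. *Bax* (chromosome 7, 45461697 to 45466898), the pore-forming effector of the mitochondrial pathway, had 19.1, 12.3, 18.8 and 18.3 CPM in IVF, 15.2 and 16.3 in control SCNT and 17.4 and 27.6 in CC_cont, which overlapped (0.14, 95% confidence interval −0.32 to 0.59). It was called lower than IVF in CC_G (RK-701), at 8.39, 8.21 and 6.56 CPM (−1.14, adjusted p = 0.0014), a value that moved to −0.85 on the TPM scale and so under 2-fold. A share of 14.4% of its counted length lies under another annotated gene. *Bbc3* (chromosome 7, 16308393 to 16318205), which encodes the BH3-only protein PUMA, rested on 3 to 49 reads per library. Its CPM was 1.01 ± 0.586 in IVF (n = 4), 1.74 and 2.07 in control SCNT and 2.66 and 3.91 in CC_cont, all untreated SCNT libraries being above the highest IVF library (1.62), with a log2 fold change of 1.30 in the mean (95% confidence interval 0.07 to 2.54, adjusted p = 0.106). *Phlda3* (chromosome 1, 135766119 to 135769136), an inhibitor of AKT, had 29 reads in all 25 libraries together. Control SCNT libraries held 2 and 11 of these reads and IVF libraries 0, which makes control SCNT at least 2.03-fold higher when IVF is set to 3 reads per library. It was called there (adjusted p = 0.042), and the call was lost whichever IVF or control SCNT library was left out.

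The stress genes went in opposite directions. *Trp53inp1* (chromosome 4, 11156431 to 11174379), a p53 target with roles in autophagy and cell death, had 288, 313, 272 and 293 CPM in IVF, 472 and 378 in control SCNT and 405 and 459 in CC_cont. Both untreated groups lay above all IVF libraries, by 0.56 in the mean (standard error 0.12, adjusted p = 0.00088), under 2-fold. *Sesn2* (chromosome 4, 132492032 to 132510501), which restrains mTORC1 in nutrient and oxidative stress, had 60.0, 70.3, 55.4 and 68.4 CPM in IVF, 36.4 and 30.3 in control SCNT and 39.5 and 54.8 in CC_cont. All 4 untreated libraries were below IVF, by −0.68 in the mean (standard error 0.15, adjusted p = 0.0012), also under 2-fold. On the TPM scale the *Sesn2* value was −0.39 and no longer passed.

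**Figure D3:**
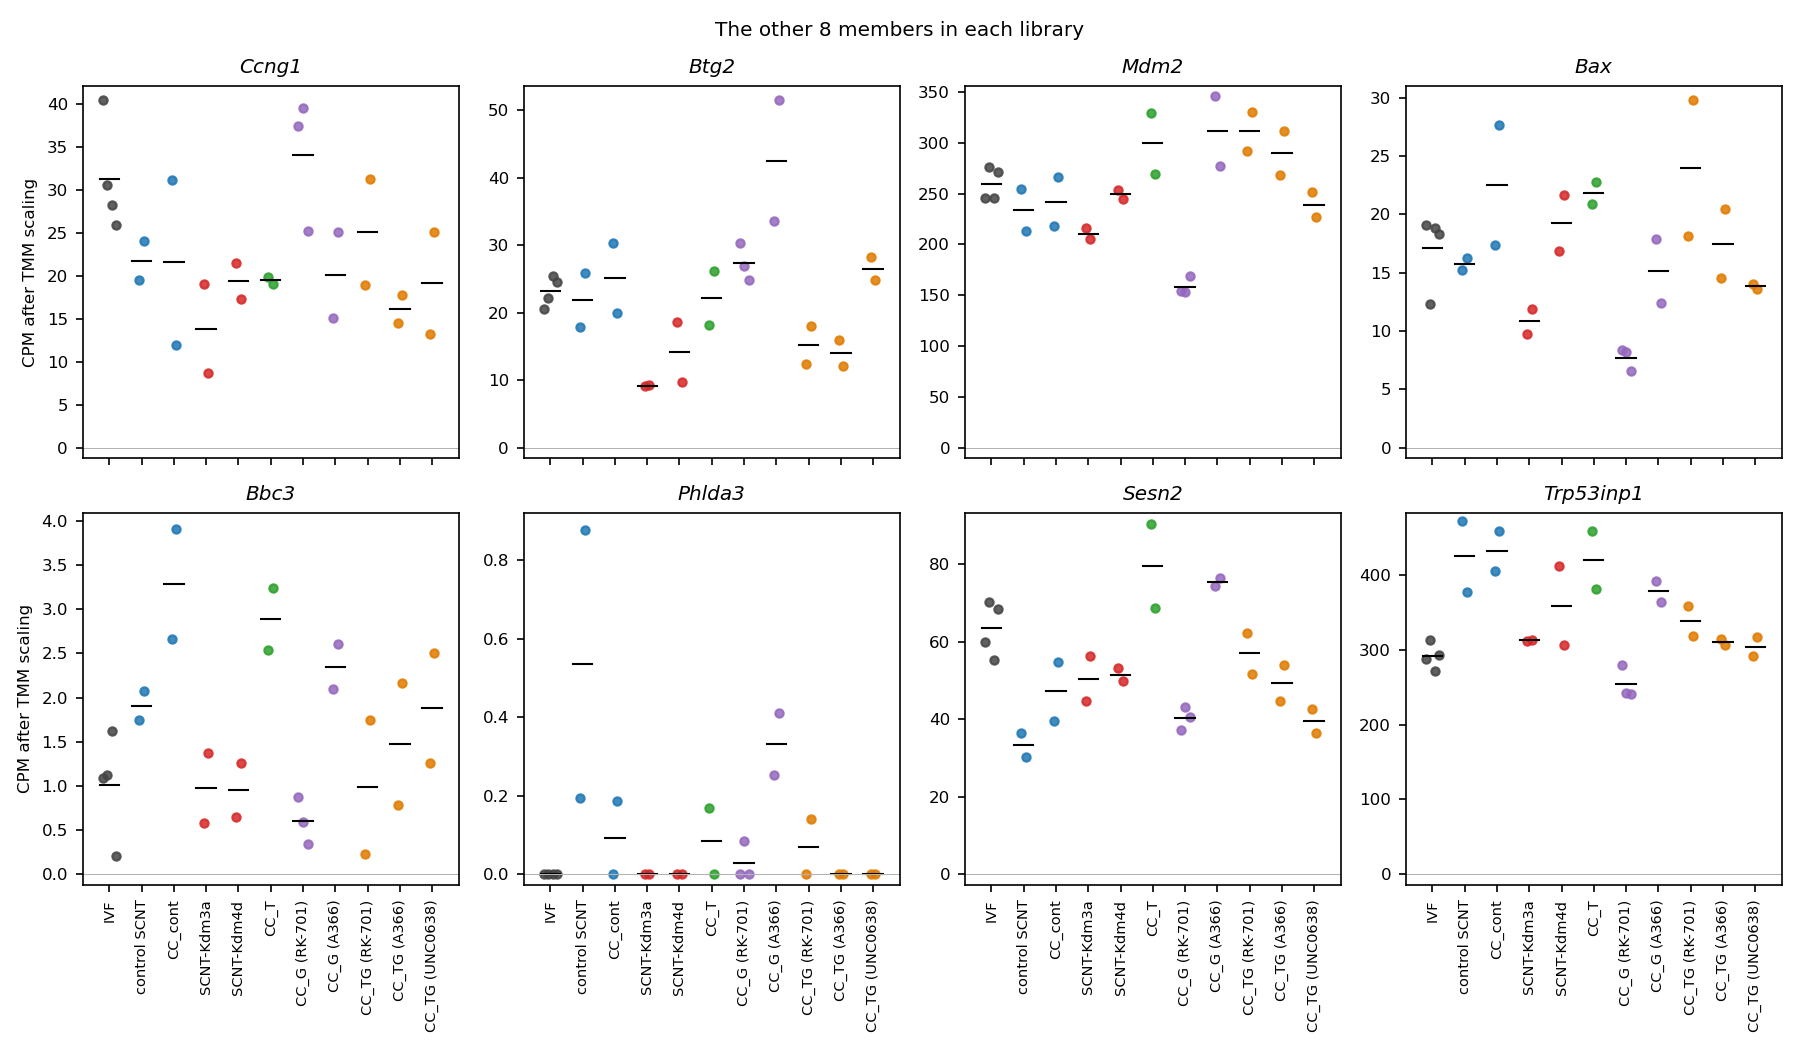
CPM after TMM scaling of *Ccng1*, *Btg2*, *Mdm2*, *Bax*, *Bbc3*, *Phlda3*, *Sesn2* and *Trp53inp1* in each library by group, with points for libraries and bars for group means and a vertical scale of its own for each gene. CC_G (RK-701) is the lowest group for *Mdm2* and *Bax*, and both untreated SCNT groups lie above IVF for *Trp53inp1*.

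Over the 8 treated groups, the count of members called against IVF stayed between 1 and 3. Beside the share of all genes called, there were 3 in SCNT-*Kdm3a* (0 higher, beside 12.8%), 1 in SCNT-*Kdm4d* (9.31%), 2 in CC_T (14.9%), 3 in CC_G (RK-701) (11.8%) and 1 in CC_G (A366) (15.2%). In the co-treated groups only *Pmaip1* was called against IVF by edgeR, beside 12.2% of all genes with RK-701, 10.9% in the A366 group and 9.84% in the UNC0638 group, and DESeq2 called 1, 2 and 1 members. In CC_G (RK-701), 5 members passed by adjusted p alone (1 higher, 4 lower, beside 19.3%), namely *Cdkn1a* upwards and *Pmaip1*, *Bax*, *Mdm2* and *Sesn2* downwards. Summed oocyte markers were 1588 to 1934 CPM in these 3 libraries, 1023 to 1245 CPM in IVF and at most 1135 CPM in the other SCNT groups, and their part in the RK-701 values was not tested.

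Injected embryos were then set against control SCNT embryos, and embryos given an inhibitor against CC_cont, to ask what each treatment changed. The study describes no mock injection of control SCNT embryos, so the injection itself and the demethylase cannot be told apart. Comparisons with one control share its 2 libraries. SCNT-*Kdm3a* had 1 member called (0 higher, 1 lower, beside 4.16% of all genes), *Btg2*, at 9.06 and 9.24 CPM against 17.8 and 25.9 CPM (log2 fold change −1.26, standard error 0.32, adjusted p = 0.0178). Leaving out control SCNT replicate 2 (−0.96), SCNT-*Kdm3a* replicate 1 (−1.24) or its replicate 2 (−1.27) ended the call. The median over the 10 members was −0.71, against −0.04 for all genes. *Pmaip1*, at 1.31 and 0.0855 CPM, was lower by 2.54 without passing (adjusted p = 0.073). *Cdkn1a* was at −0.77 (95% confidence interval −1.33 to −0.22, adjusted p = 0.093).

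SCNT-*Kdm4d* also had 1 member called (0 higher beside 2.11% of all genes, 1 lower beside 1.04%, 3.14% in either direction). It was *Pmaip1*, with 0.484 and 0.280 CPM (6 and 4 reads) against 3.39 and 5.66 CPM (log2 fold change −3.56, standard error 0.96, adjusted p = 0.028). The call was lost whichever of the 4 libraries was left out (−3.14 to −3.98), and against CC_cont the value was −1.36. For the other members with reads in both groups the values ran from −0.99 (*Bbc3*) to 0.63 (*Sesn2*), and none passed. *Cdkn1a* was at −0.08 (95% confidence interval −0.64 to 0.47).

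With TSA alone and with A366 alone, 0 members were called against CC_cont, beside 0.318% and 0.12% of all genes, and DESeq2 also called 0. At an unadjusted p under 0.05 there were 2 members with TSA (*Pmaip1* and *Sesn2*) and 4 with A366. *Cdkn1a* was at 0.18 with TSA (95% confidence interval −0.37 to 0.73) and at −0.19 with A366 (95% confidence interval −0.74 to 0.36). *Sesn2* had 90.3 and 68.7 CPM with TSA and 74.5 and 76.5 CPM with A366, above both CC_cont libraries (39.5 and 54.8 CPM), yet the log2 values of 0.76 (adjusted p = 0.11) and 0.68 (adjusted p = 0.19) did not pass.

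RK-701 alone lowered 1 member past both thresholds (0 higher, 1 lower, beside 3.35% of all genes). *Bax* had 8.39, 8.21 and 6.56 CPM against 17.4 and 27.6 CPM in CC_cont (log2 fold change −1.54, standard error 0.28, adjusted p = 0.0020), and the call was lost without CC_cont replicate 2 (−1.17, adjusted p = 0.0845). By adjusted p alone 3 members passed, all lower (beside 5.47%): *Bax*, *Trp53inp1* (280.0, 242 and 241 CPM against 405 and 459 CPM, −0.76, adjusted p = 0.0038) and *Mdm2* (−0.61, adjusted p = 0.018). For these 3 genes every RK-701 library lay below both CC_cont libraries. *Cdkn1a* did not pass (0.25, 95% confidence interval −0.26 to 0.75). The members' median was −0.42, against −0.01 for all genes.

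**Figure D4:**
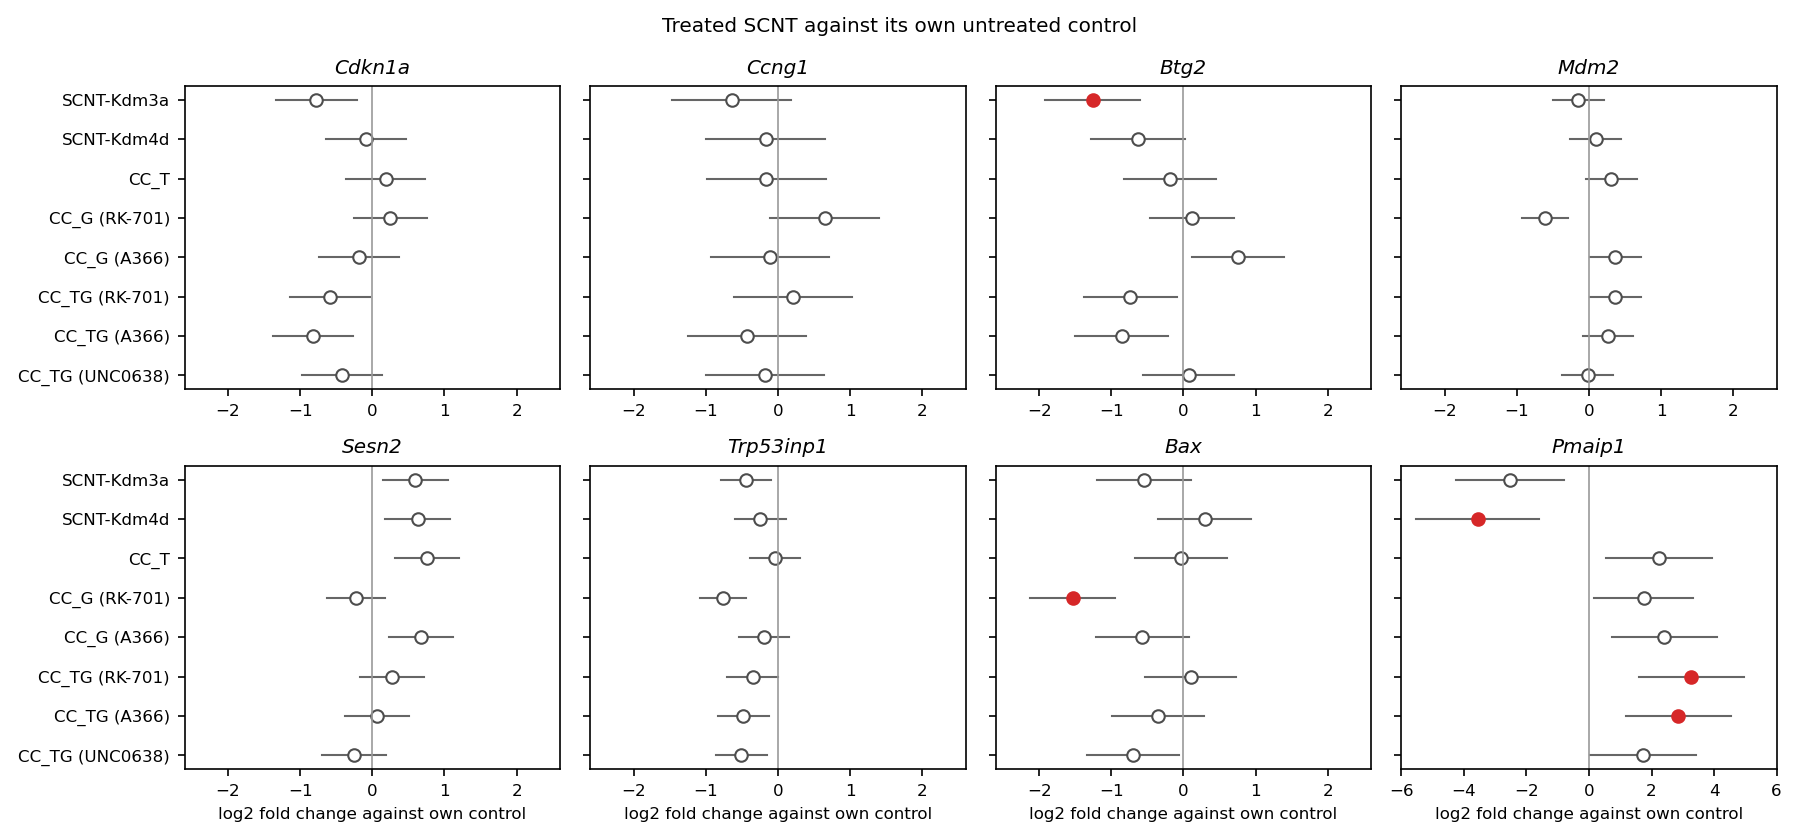
Log2 fold change of 8 members in each treated group against its own untreated control (control SCNT for the injected groups, CC_cont for the others), with lines for the 95% confidence interval and filled red points for calls; the *Pmaip1* panel has a wider scale. The 5 filled points are *Btg2* in SCNT-*Kdm3a*, *Bax* in CC_G (RK-701) and *Pmaip1* in SCNT-*Kdm4d*, CC_TG (RK-701) and CC_TG (A366).

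Co-treatment with TSA and a G9a inhibitor raised *Pmaip1* against CC_cont in 2 of 3 groups. The single treatments gave values of 2.24 (TSA), 2.40 (A366) and 1.75 (RK-701) that did not pass, and the interactions for *Pmaip1* were −0.72 with RK-701 and −1.79 with A366 and did not pass either, so nothing particular to co-treatment was shown. With TSA and RK-701 it had 7.65 and 11.4 CPM against 1.74 and 0 (log2 fold change 3.26, standard error 0.82, adjusted p = 0.0104), and it was the 1 member called (3.68% of all genes were called higher, 2.51% lower, 6.19% in either direction). With TSA and A366 it had 11.1 and 3.25 CPM (2.85, adjusted p = 0.0257), again the 1 member called (beside 5.98%). With TSA and UNC0638, 0 members were called by edgeR or DESeq2, beside 6.21% of all genes and with 3 members at an unadjusted p under 0.05, and *Pmaip1* at 3.37 and 3.17 CPM had a value of 1.73 (95% confidence interval 0.02 to 3.43). The first call was lost without CC_cont replicate 2 (2.45) or CC_TG (RK-701) replicate 2 (2.95), and the second without CC_cont replicate 2 (2.04) or CC_TG (A366) replicate 1 (1.72). Against control SCNT in place of CC_cont the values were 1.06 and 0.65 and did not pass. Between the controls themselves, 0 members were called by edgeR or DESeq2 (beside 0.0116% of all genes), 2 had an unadjusted p under 0.05, and *Pmaip1* differed by −2.20 (95% confidence interval −3.89 to −0.51, adjusted p = 0.53).

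Embryos of all 3 co-treated groups had lower *Cdkn1a* values than CC_cont, by −0.42 to −0.82, without passing the test. *Btg2* was lower as well with TSA and RK-701 (−0.73) or A366 (−0.85), also without passing, but not with UNC0638 (0.07). On the TPM scale *Cdkn1a* was called lower with TSA and A366 (−1.13) and in SCNT-*Kdm3a* against control SCNT (−1.16), and *Btg2* lower in SCNT-*Kdm4d* (−1.01) and with TSA and RK-701 (−1.10) or A366 (−1.14). *Bbc3* was called lower there in CC_G (RK-701) (−1.74) and CC_TG (RK-701) (−1.68), and *Bax* with TSA and UNC0638 (−1.08). The TPM scale moved the median of genes with 5 CPM or more by −0.32 to −0.40 in the 3 co-treated groups against CC_cont and by −0.37 to −0.38 in the injected groups against control SCNT. *Mdm2* changed sign between the scales in SCNT-*Kdm4d* (0.09 and −0.30), CC_TG (RK-701) (0.36 and −0.07) and CC_TG (A366) (0.26 and −0.11). *Bax* did so in SCNT-*Kdm4d* (0.29 and −0.12) and CC_TG (RK-701) (0.10 and −0.34).

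RK-701, A366 and UNC0638, all inhibitors of G9a, could be compared at 1 dose and time, in 4 pairs. A366 and RK-701 alone gave 0 calls among the members, beside 8.08% of all genes, with 7 members at an unadjusted p under 0.05 and 0 called by DESeq2. By adjusted p alone 4 members passed (beside 12.9%), all higher with A366. *Mdm2* had 346 and 277 CPM with A366 and 153 to 168 CPM with RK-701 (0.98, 95% confidence interval 0.66 to 1.29, adjusted p = 0.00010), and *Sesn2* had 74.5 and 76.5 CPM against 37.3 to 43.2 CPM (0.90, adjusted p = 0.0022). *Trp53inp1* differed by 0.57 (adjusted p = 0.012) and *Bax* by 0.97 (adjusted p = 0.024), also with no overlap between the groups. Past 2-fold, and so called, were *Mdm2* without A366 replicate 2 (1.06) or RK-701 replicate 3 (1.02), and *Bax* without A366 replicate 2 or RK-701 replicate 1 or 2 (1.01 to 1.15). The oocyte markers that were high with RK-701 alone (1588 to 1934 CPM) summed to 946 to 1135 CPM with A366 alone, and their part in these differences was not tested.

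Under TSA the inhibitors were not separated by any member. A366 against RK-701 gave 0 calls among members and 0% of all genes, with 0 members at an unadjusted p under 0.05, and *Mdm2* differed by −0.10 (95% confidence interval −0.45 to 0.25). UNC0638 gave 0 member calls against RK-701 (beside 0.946% of all genes, 5 members at an unadjusted p under 0.05) and 0 against A366 (beside 0.849%, 1 member), and DESeq2 called 0 members in all 3 pairs. *Pmaip1* was lower by 1.54 with UNC0638 than with RK-701 (95% confidence interval −3.05 to −0.03, adjusted p = 0.42).

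The interaction of TSA with a G9a inhibitor asked whether the co-treatment departed from the sum of the separate changes. For RK-701, 1 member was called (1 higher, beside 2.14% of all genes). *Bax* was at 7.72 ± 1.01 CPM (n = 3) with RK-701 alone, 21.8 ± 1.29 (n = 2) with TSA alone and 24.0 ± 8.27 (n = 2) with both, an interaction of 1.67 (standard error 0.42, adjusted p = 0.032). With the replicate number as a block it was 1.64 and did not pass, and leaving out any of 6 libraries ended the call (1.27 to 1.74), among them CC_cont replicate 2 (1.30) and CC_TG (RK-701) replicate 2 (1.27). For A366, 1 member was called (1 lower, beside 1.83%). *Sesn2* was at 75.5 ± 1.39 CPM with A366 alone, 79.5 ± 15.3 with TSA alone and 49.3 ± 6.59 with both (n = 2 each), an interaction of −1.37 (standard error 0.31, adjusted p = 0.0224). Leaving out CC_cont replicate 1, CC_T replicate 1, CC_G (A366) replicate 2 or CC_TG (A366) replicate 1 ended that call (−1.15 to −1.31).

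The members were read beside the rest of the pathway. *Trp53* itself had 32.4 ± 5.20 CPM in IVF (n = 4) and 31.3 CPM in the mean of untreated SCNT embryos (−0.05, standard error 0.23, adjusted p = 0.89). The damage kinases were likewise not called in that mean: *Atm* was at −0.05, *Atr* at 0.65 (adjusted p = 0.077), *Chek2* at 0.10 and *Chek1* at 0.44 (adjusted p = 0.0103, under 2-fold). Of 18 genes for p53 and its regulators, 1 was called higher and 2 lower (16.7%, near the 18.8% of all genes in that mean). *Hipk2*, a kinase that phosphorylates p53, had 34.3 against 13.6 CPM (1.32). *Mdm4*, which inhibits p53 together with MDM2, had 3429 CPM in untreated SCNT and 7181 CPM in IVF embryos (−1.07, standard error 0.10, adjusted p = 1.23e-08). *Trp63*, a relative of p53 that guards oocytes, had 2.93 against 9.77 CPM (−1.89).

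Other p53 targets moved both ways in untreated embryos, more of them upwards. Of the 32 on the list 30 were tested, and 6 were called higher and 3 lower (30%, beside 18.8% of all genes), with a median of 0.53 against 0.00 for all genes. By adjusted p alone 18 of the 30 passed, 12 higher and 6 lower, beside 29.2% of all genes. *Dram1*, a gene of lysosomes and autophagy, had 19.9 against 1.91 CPM (3.31, adjusted p = 4.0e-09), and *Xpc*, a sensor of DNA lesions, 10.1 against 2.36 CPM (2.05). *Ckap2*, a spindle protein, had 70.2 against 225 CPM (−1.69), and *Plk3* (−1.54) and *Ccng2* (29.5 against 71.2 CPM, −1.27) were lower as well. Of 16 CDK inhibitors and antiproliferative genes tested, 2 were called higher and 7 lower (56.2%, beside 18.8% of all genes), with a median of −0.77. Of 9 oocyte markers tested, 8 were lower by adjusted p in the same comparison, 4 of them called, with a median of −0.69, and the part of maternal RNA in this list was not tested. *Gadd45g*, a growth arrest gene, had 53.3 against 3.95 CPM (3.79, adjusted p = 1.3e-09), and *Gadd45b* 85.6 against 39.1 CPM (1.14). Those lower included *Cdkn1c*, a relative of p21 (1.86 against 17.0 CPM, −3.30), *Tob1* (71.6 against 253 CPM) and *Btg4*, which clears maternal mRNA (674 against 1854 CPM).

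In the BCL2 family 4 of 13 were called (30.8%, beside 18.8% of all genes), 2 of them higher, *Bok* (1.29) among these, and 2 lower, *Bcl2l10* (193 against 449 CPM, −1.22) and *Bad* (−1.15, with overlapping libraries). Among 12 genes of G2/M entry 1 was called, *Cdc25a* (38.7 against 13.5 CPM, 1.51), among 14 of the integrated stress response 1, *Asns* (25.0 against 3.77 CPM, 2.80), and among 16 of DNA repair 1, *Fancd2* (1.01), all higher and each list below the share of all genes (8.33%, 7.14% and 6.25%).

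**Figure D5:**
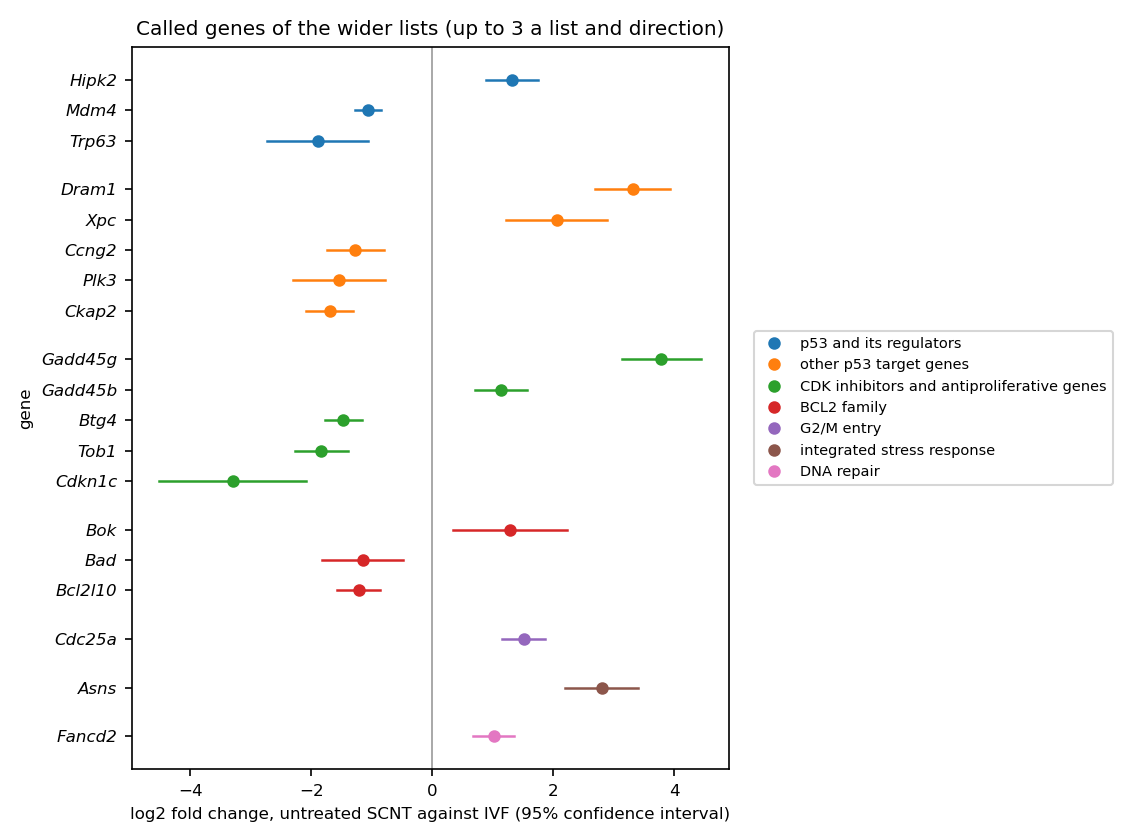
Log2 fold change, mean of untreated SCNT against IVF, with lines for the 95% confidence interval, of up to 3 called genes a direction in each of 7 lists (colours). *Gadd45g* and *Dram1* lie far to the right and *Cdkn1c* far to the left.

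After treatment, calls stood in 5 of the 7 lists in SCNT-*Kdm4d* and in 6 of the 7 in CC_TG (RK-701). In SCNT-*Kdm4d* against control SCNT, where 3.14% of all genes were called, 0 of 18 regulators were called, 1 of 30 other p53 targets (*Ckap2*, 1.54), and 2 of 16 CDK inhibitors and antiproliferative genes, *Cdkn3* upwards (1.05) and *Gadd45g* downwards (15.6 against 53.5 CPM, −1.78). Among 12 genes of G2/M entry *Aurka* (1.19) and *Cdc25c* (1.06) were higher and *Cdc25a* lower (−1.10), and *Bik* (1.48) and *Ppp1r15a* (1.09) were the 1 call each in the BCL2 and integrated stress response lists, with 0 of 16 in DNA repair. In CC_TG (RK-701) against CC_cont, where 6.19% of all genes were called, 1 of 18 regulators, 4 of 30 other p53 targets, 2 of 16 CDK inhibitors and antiproliferative genes, 1 of 13 in the BCL2 family, 2 of 12 of G2/M entry and 1 of 14 of the integrated stress response were called. *Gadd45g* was lower (10.5 against 53 CPM, −2.34), as were *Hipk2* (−1.62), the p53 targets *Fdxr* (−2.30) and *Sfn* (−1.64), *Bcl2* (−3.19) and *Ddit3*, a transcription factor of the stress response (−1.73). Higher there were *Ckap2* (1.59), *Btg1* (1.21) and the mitotic cyclins *Ccnb1* (1.22) and *Ccnb2* (1.12), and 0 of 16 DNA repair genes were called. *Trp53* was at 0.44 in the first of these comparisons and at 0.33 in the second, and passed in neither.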

How the data were processed

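Polyadenylated RNA of embryo pools was amplified with SMART-Seq HT and sequenced. Per the labels and the study's methods, the authors used Trimmomatic for trimming and STAR for alignment to mm10, took only unique positions, and counted read pairs on genes and repeats with featureCounts 1.6.2, without regard to strand, a pair over more than 1 feature being left out. The authors deposited whole counts without normalization, and a length for each gene (unit other, in bases). Repeats, 1755056 copies in the same table, were not used here. IDs were joined to symbols of the mm10 annotation, and 241 had none.

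edgeR 4.0.16 and limma 3.58.1 (R 4.3.3) were used on the counts of the 25794 autosomal genes that averaged 1 read or more, in 1 quasi-likelihood fit of all 25 libraries with a term for each of 11 groups and TMM factors (0.883 to 1.16). Groups of 2 thus share the spread of all groups (common dispersion 0.136, prior degrees of freedom 12.6). Every p is two-sided. A fold against a group with at most 3 reads in every library is a bound at 3 reads per library and covers counting error only, since PCR copies carried no molecular identifiers. TPM was computed from counts and lengths over autosomal genes. Libraries differ in embryo pools, so the spread holds pool and technical differences together.

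The 10 members, and the lists of other pathway genes, were chosen with earlier results of these data known. Genes outside the members are named by rule: *Trp53*, *Mdm4*, *Atm*, *Atr*, *Chek1* and *Chek2*, and of each list up to 3 called genes a direction by log2 fold change in 3 comparisons (mean of the untreated controls against IVF, SCNT-*Kdm4d* against control SCNT, CC_TG (RK-701) against CC_cont) and 10 reads or more in all libraries of the group with the higher level. 1 gene that this rule names is not reported here. The quasi-likelihood fit was checked on simulated counts, in the contrasts of CC_cont and of control SCNT with IVF. The other steps were not checked in this way. Alternatives were DESeq2 1.42.0, RLE factors, no filter, a filter of 10 reads, no fold threshold, the compared libraries only, a replicate block, exchange of the untreated control, leaving out each library in turn and, added after seeing the data, limma on log2(TPM + 1). Promoters came from RefSeq. Figures were drawn with matplotlib 3.10.9 in Python 3.11.15.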

Additional observations from a re-analysis of the deposited data

Results flagged for a closer look

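*Pmaip1* in IVF was flagged because 1 of the 4 libraries, at 63.6 CPM against 44.6 to 47.3 CPM, stood off by a gap of 0.859 of the group's range, and *Bax* in IVF because 1 library, at 12.3 CPM against 18.3 to 19.1 CPM, stood off by 0.891. Chance flags about 1 in 20 groups by this measure. The *Pmaip1* library stands on the far side from SCNT embryos. The effect of RK-701 on *Bax* differed with and without TSA, by an interaction of 1.67 on the log2 scale, and the effect of A366 on *Sesn2* by −1.37. The first was lost when any of 6 libraries was left out and the second when any of 4 was.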

How the results depend on the processing

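No called value changed sign under any alternative. Summed over the 3 contrasts of untreated SCNT with IVF, 5 calls among members became 12 without the fold threshold and 8 with limma on log2(TPM + 1), an alternative chosen after seeing the data, and 3 to 7 with 1 library left out (3 without IVF replicate 3). In treated embryos against IVF 13 became 20 without the fold threshold, and 12 to 14. Against the untreated control 5 became 11 without a filter on low counts, 3 with the compared libraries only, 13 with limma on TPM, and 3 to 8 (3 without control SCNT replicate 2, 8 without CC_cont replicate 1). CC_cont against control SCNT went from 0 to 1 without the filter, and to 0 to 1. The inhibitor pairs went from 0 to 4 without the fold threshold, 1 without the filter, and 0 to 2. The interactions went from 2 to 0 with the compared libraries only, 1 with limma on TPM, and 0 to 2. Calls among other pathway genes went from 28 to 57 without the fold threshold, and to 28 to 35. *Cdkn1a* in the mean of untreated embryos (0.95) was called without the fold threshold (0.95) and with limma on TPM (1.18), and lay at 0.77 to 1.08 with 1 library left out. Same-numbered libraries of different groups did not as a rule deviate together (median correlation −0.00844 over 111 pairs, from −0.418 to 0.223, 9 over 0.1). Of 25 libraries 7 were nearest to their own number, so the numbers do not pair libraries. Libraries of different numbers had a median of 0.00427, and deviations shared among some of them were not tested. With the replicate number as a block the interactions fell from 2 calls to 1, *Bax* at 1.64 being lost. Groups of 2 libraries and *Phlda3* and *Bbc3*, with 0 to 49 reads per library, limit what these data can show.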

Other observations

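Across the 25 libraries, the genes with levels most like *Cdkn1a* in log2(CPM + 1), of 10174 genes with at least 5 CPM, were *Rab3il1* (Pearson's r = 0.886), *Capn1* (0.832), *Pla2g4e* (0.816), *Atp6v0a4* (0.811) and *Hspa5* (0.803), a chaperone of the endoplasmic reticulum. Those most like *Mdm2* were *Kti12* (0.906), *Yrdc* (0.901), *Serp1* (0.890), *Tsc22d4* (0.887) and *Upf1* (0.887). Among the members themselves the highest value was that of *Mdm2* with *Bax* (0.763), followed by *Mdm2* with *Sesn2* (0.642). *Cdkn1a* had its highest value among the members with *Btg2* (0.427) and stood at −0.453 with *Pmaip1*. The libraries share their groups, so these values describe differences between groups as much as between embryos.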
